A study of Mus musculus with 127 samples.

Results

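Long noncoding RNA genes of the mouse brain, namely Malat1, Neat1, Miat, Tug1, Peg13, Pantr1, Snhg11 and Kcnq1ot1, were followed through cell fractions of adult cortex and through mutants of Chd8. They were chosen by name, as 8 of the 54838 genes in the deposited count tables, to set RNAs known to stay in the nucleus beside RNAs found at synapses. All 8 were in every table and passed the filter on low counts in every comparison. Chd8 encodes a chromatin remodeller, and people who lack 1 working copy of the human gene are often autistic.

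Poly(A) RNA was sequenced from cortex of male and female mice about 60 days old. In the germline line, heterozygotes (HET, Chd8+/-, with a 5 bp deletion on 1 allele) were compared with wild-type littermates (WT). Its libraries came from synaptic (7 HET and 11 WT), nuclear (9 HET and 12 WT) and cytosolic fractions (7 HET and 5 WT) and from whole cortex (16 HET and 15 WT). In the conditional line the floxed allele is deleted where Camk2a-CRE is active, that is in forebrain excitatory neurons, so other cell types keep Chd8. Its synaptic libraries were 5 HOM (Camk2a-CRE Chd8flox/flox), 5 HET (Camk2a-CRE Chd8+/flox) and 4 WT (Camk2a-CRE Chd8+/+), and its nuclear libraries 3 HOM, 6 HET and 4 WT. All mice of these conditional fraction groups carry Cre, WT included. Whole cortex of the conditional line comprised 6 Chd8+/flox mice with Camk2a-CRE and 8 Chd8+/flox mice without it by their titles. The protocol text describes those cortex groups as WT and floxed, so what they compare beyond Cre is in doubt.

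Long noncoding RNAs act as RNA, and where they sit in the cell differs from gene to gene. Malat1 collects in nuclear speckles beside splicing factors, Neat1 is the scaffold of paraspeckles, Miat (also Gomafu) forms domains of its own in neuronal nuclei, and Kcnq1ot1 stays at its own chromosomal locus, where it silences neighbouring imprinted genes. A synaptosome fraction holds pinched-off nerve endings with attached postsynaptic material, and is expected to be poor in nuclei.

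Total gene counts per library ranged from 19 to 56.6 M (M for mega), except in conditional cortex, where they ranged from 98.1 to 134.6 M. Levels are given as CPM, the count of a gene per mega-count (10 to the power 6) of its library. Neuronal markers summed to a median of 6990 CPM in the germline WT synaptic fraction and 3633 CPM in the nuclear fraction. Of the synaptic libraries, those labelled WT male replicates 1 and 2 stood apart. Their 7 endothelial and mural markers summed to 576 and 586 CPM, against 45.8 to 68.7 CPM in the other 9 WT synaptic libraries, and the tests between germline WT fractions are given with and without them. Sex markers were at odds with the label in 2 nuclear libraries. WT male replicate 7 had the female marker Xist at 547 CPM and the male marker Ddx3y at 0 CPM. HET female replicate 4 had Xist at 0.428 CPM and Ddx3y at 0 CPM, so it was low in both and did not look male. In germline cortex Chd8 itself was at 62.03 ± 11.9 CPM in HET (SD, n = 16) and 93.2 ± 13.8 CPM in WT (SD, n = 15; log2 fold change −0.58, SE 0.0755, edgeR adjusted p = 7.89e-05). In the other genotype comparisons its edgeR adjusted p ranged from 0.308 to 0.995. In the germline cytosolic fraction Chd8 ranged from 55.5 to 77.05 CPM in HET and from 77.6 to 90.1 CPM in WT, without overlap (edgeR unadjusted p = 0.00015, adjusted p = 0.92), and in the synaptic fraction its median was 33.8 CPM in HET and 59.2 CPM in WT. In germline nuclei it averaged 116.6 ± 16.98 CPM in HET (SD, n = 9) and 116.8 ± 10.67 CPM in WT (SD, n = 12), so Chd8 was not lower in the nuclear libraries labelled HET and does not check their labels. In the conditional line its log2 difference from WT was −0.47 in nuclear and −0.57 in synaptic HOM. In conditional HET it was −0.06 in nuclear and −0.21 in synaptic libraries (edgeR unadjusted p = 0.681 and 0.242). Chd8 therefore does not check the conditional HET labels either.

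Malat1 (ENSMUSG00000092341, chromosome 19, 5795690 to 5802672, minus strand, GRCm38) and Neat1 (ENSMUSG00000092274, chromosome 19, 5824708 to 5845478, minus strand) are neighbours, each with a transcript of 1 exon in the annotation used here. Malat1 and the long form of Neat1 are known to lack an ordinary poly(A) tail: RNase P cuts the RNA, and U-rich stretches pair with an A-rich tract to protect the new end. That element is shown because it is the feature that sets these 2 RNAs apart from the others in how they end. The stretches below are given on the transcript strand in GRCm38, at chr19:5795973-5796072 (minus strand) for Malat1 and chr19:5824708-5824807 (minus strand) for the last 100 bases of Neat1. Capitals mark T runs of at least 3 bases split by 1 or 2 C or G, and A runs of at least 5.
Malat1: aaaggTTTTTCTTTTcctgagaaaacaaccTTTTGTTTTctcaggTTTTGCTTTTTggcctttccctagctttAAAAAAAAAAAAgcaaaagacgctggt
Neat1: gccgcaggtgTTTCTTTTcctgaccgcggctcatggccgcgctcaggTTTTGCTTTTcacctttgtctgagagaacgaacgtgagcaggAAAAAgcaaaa
Both stretches hold split T runs upstream of an A run, which is 12 bases long in Malat1 and 5 bases in Neat1.

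Miat (ENSMUSG00000097767, chromosome 5, 112213228 to 112229395, minus strand) carries repeats of ACTAAC, the letters of a branch point that splicing factor SF1 is known to bind in Miat RNA. The repeats are shown because no other member has such a cluster. Its longest annotated transcript, Miat-205, has 9163 bases in 7 exons and holds 11 of them, or 1.2 per kb. Over 30258 annotated lncRNA transcripts the motif occurred 0.124 times per kb on the transcript strand, and 0.0074% of windows of 300 bases held 4. The other members had 0 to 0.48 per kb, and none had more than 2 in a window. The stretch at chr5:112216756-112216873 (minus strand, GRCm38) holds 4, in capitals.
Miat: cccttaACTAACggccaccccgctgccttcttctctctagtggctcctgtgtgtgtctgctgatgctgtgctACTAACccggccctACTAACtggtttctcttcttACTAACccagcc
A shorter motif, AGCCC, which has been tied to nuclear retention of the RNA Borg, ran from 0.149 per kb in Tug1 to 1.92 per kb in Pantr1, with 1.86 in Miat, against 1.36 per kb over all lncRNA transcripts. It did not order the members by fraction.

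Tug1 (ENSMUSG00000056579, chromosome 11, 3639785 to 3649673, minus strand) was first described as an RNA needed for photoreceptor development and is known from both nucleus and cytoplasm. Peg13 (ENSMUSG00000106847, chromosome 15, 72805600 to 72810324, minus strand) is an imprinted RNA expressed from the paternal allele in brain, and lies within an intron of Trappc9 on the same strand. Pantr1 (ENSMUSG00000060424, chromosome 1, 42590782 to 42694842, minus strand) is a spliced RNA beside Pou3f3, a transcription factor gene of cortical neurons. The last 60 bases of their annotated transcripts are shown, in contrast with the ends of Malat1 and Neat1, at chr11:3639785-3639844, chr15:72805600-72805659 and chr1:42590782-42590841 (all minus strand, GRCm38). Capitals mark AATAAA, the usual poly(A) signal, which overlaps itself in Peg13.
Tug1: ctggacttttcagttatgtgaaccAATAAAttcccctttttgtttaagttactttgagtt
Peg13: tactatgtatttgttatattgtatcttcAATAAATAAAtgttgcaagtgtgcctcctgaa
Pantr1: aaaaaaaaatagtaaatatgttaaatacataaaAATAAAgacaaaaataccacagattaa
The motif was in the last 60 bases of 6 of the 8 members, Malat1 included, and of 24.03% of lncRNA transcripts. It was not in those of Neat1 and Miat.

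Snhg11 (ENSMUSG00000044349, chromosome 2, plus strand, starting at 158375638) is a host gene of small nucleolar RNAs that is expressed in neurons. The annotation types it as protein coding. Kcnq1ot1 (ENSMUSG00000101609, chromosome 7, 143203458 to 143296549, minus strand) is transcribed from the paternal allele, antisense to Kcnq1. Reads of overlapping genes may not be told apart: antisense genes or small RNAs of the same strand covered 30.4% of the exonic bases of Miat, 11.6% of those of Tug1, 7.72% of those of Malat1 and under 2% of those of the other members. Only exons of the other genes were counted. Overlap with introns, as of Peg13 with Trappc9 and of Kcnq1ot1 with Kcnq1, is left out, and reads of unspliced RNA there may be shared as well.

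Per kb of exonic length, Snhg11 stood above the other 7 members in all 5 nuclear groups, and Kcnq1ot1 stood lowest in all 16 groups. This order is of reads from poly(A) RNA, and Neat1 was divided by the full length of its long form. Malat1 and the long form of Neat1 lack an ordinary poly(A) tail, so the order need not be that of molecules. In germline WT nuclei Snhg11 had 1075 ± 146 CPM per kb (SD, n = 12), Malat1 219 ± 73.9 and Miat 170 ± 24.1 CPM per kb, and the last 2 did not differ beyond their SDs. Peg13 had 36.7 ± 4.54, Neat1 23.7 ± 8.68, Tug1 11.3 ± 1.95, Pantr1 5.62 ± 1.21 and Kcnq1ot1 0.673 ± 0.217 CPM per kb. In the germline WT synaptic fraction the order was another one. Median levels were 60.02 CPM per kb for Peg13, 59.1 for Snhg11, 16.1 for Malat1, 11.6 for Miat, 7.34 for Tug1, 7.08 for Pantr1, 0.545 for Neat1 and 0.0524 for Kcnq1ot1. By reads, Snhg11 ranked 3rd of all genes in germline WT nuclei by mean CPM. Together the 8 members took a median of 1.32% of the reads of a germline WT nuclear library and 0.108% of those of a synaptic library.

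**Figure D1:**
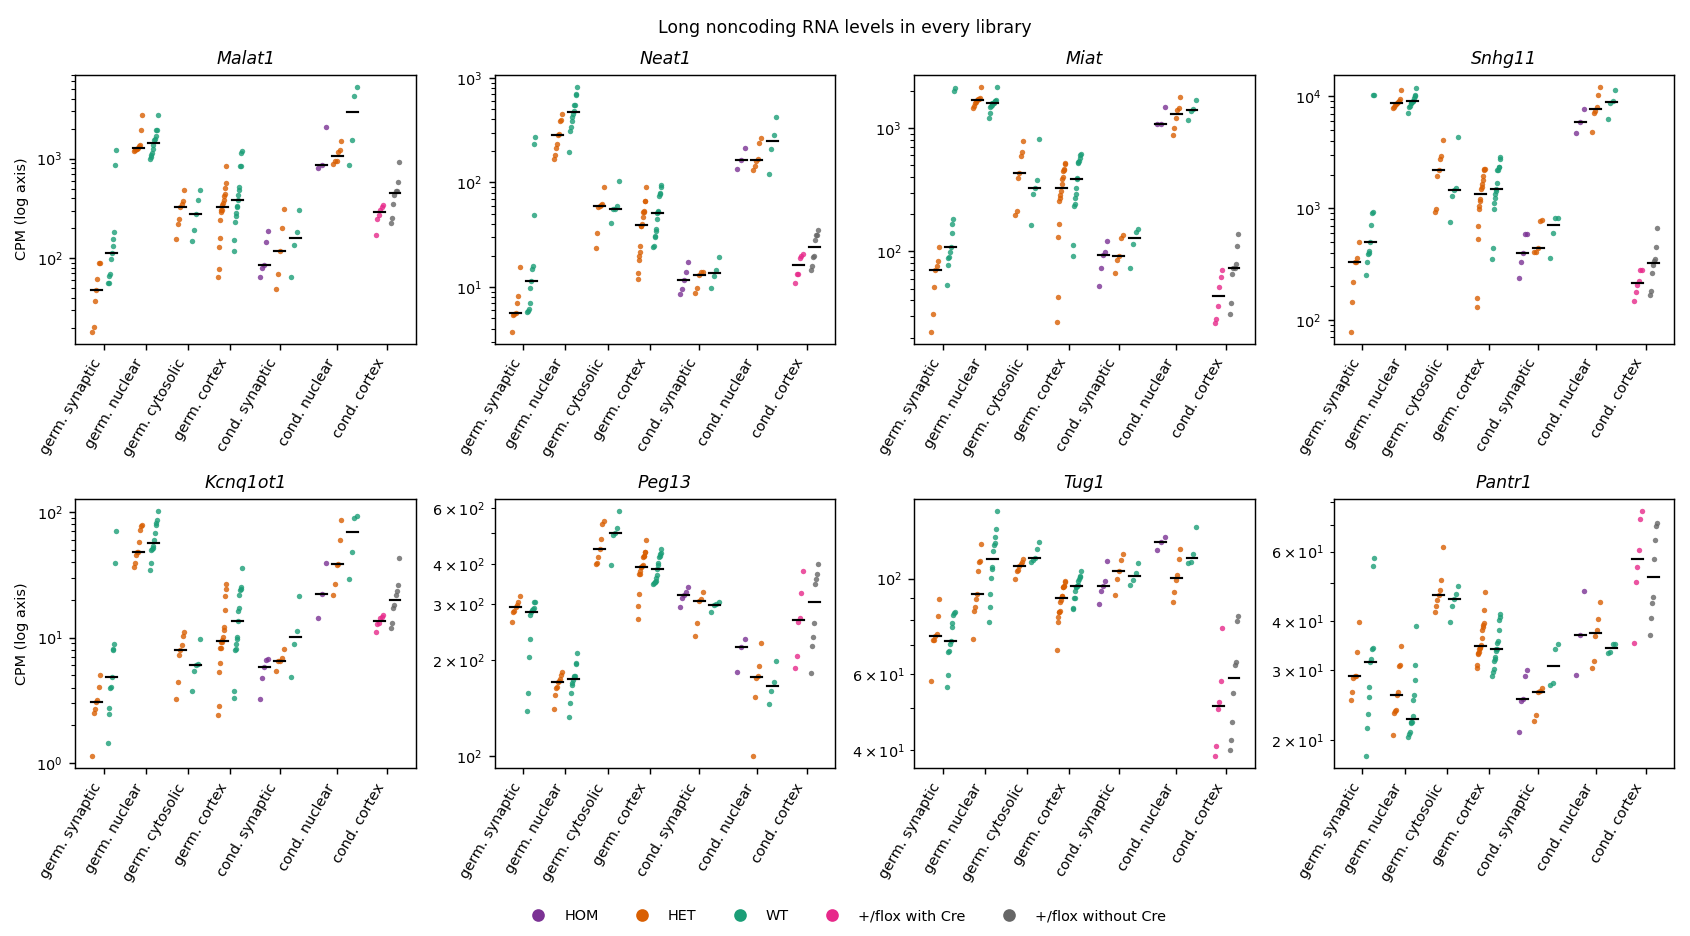
Level of each member in every library (CPM on a log axis) by fraction and genotype. Each point is 1 library and the black line is the group median. Malat1, Neat1, Miat, Snhg11 and Kcnq1ot1 sit high in the nuclear groups, while Peg13 sits lower there than in the synaptic groups. The 2 WT synaptic points at nuclear levels are WT male replicates 1 and 2.

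Synaptic and nuclear libraries of the same animals were compared to ask which members leave the nucleus. In germline WT mice (10 animals) 5 members fell in the synaptic fraction and 2 rose, where 65.9% of the 18879 genes tested were called, 35.1% lower and 30.8% higher. In germline HET (5 animals) the count was again 5 lower and 2 higher, with 73% of genes called, 38.5% lower and 34.5% higher. In conditional HOM (3 animals) 5 were lower and 1 higher, with 51.6% of genes called, 26.9% lower and 24.7% higher. In conditional HET (5 animals) 5 were lower and 2 higher, with 65% called, 33.5% lower and 31.5% higher, and in conditional WT (4 animals) 5 were lower and 3 higher, with 66.9% called, 35% lower and 31.9% higher. Without WT male replicates 1 and 2 the germline WT count was the same. The members' median log2 fold change was −2.75 in germline WT, against −0.06 over all genes. The 5 lower members were Malat1, Neat1, Miat, Snhg11 and Kcnq1ot1 in each comparison, and Peg13 was higher in each.

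Malat1 ranged from 18.2 to 89.8 CPM in the germline HET synaptic libraries, with a median of 48.0, and from 55.7 to 1221 CPM in the WT ones, with a median of 112. In the nuclear libraries it ranged from 1203 to 2779 CPM in HET, with a median of 1276, and from 1000 to 2777 CPM in WT, with a median of 1452. Only the synaptic library of WT male replicate 2, at 1221 CPM, reached the nuclear range, and that of WT male replicate 1, at 857 CPM, came near it. The synaptic level was 13.6% of the nuclear one in WT (edgeR adjusted p = 6.75e-05, log2 fold change −2.88, SE 0.384) and 4.46% in HET (−4.49, SE 0.471, edgeR adjusted p = 8.48e-06). Without the animals of WT male replicates 1 and 2 the WT fold change was −3.35 (edgeR adjusted p = 1.03e-07). In the conditional line no synaptic library reached a nuclear one. Malat1 ranged from 49.2 to 308.4 CPM in its 14 synaptic libraries, with a median of 126, and from 811 to 5292 CPM in its 13 nuclear libraries, with a median of 1173. Its log2 fold change was −3.40 in HOM, −2.55 in HET and −3.47 in WT.

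Neat1 was the member with the lowest synaptic share in germline WT, where its log2 fold change of −4.07 (SE 0.636, edgeR adjusted p = 0.000172) was the 123rd lowest of 18879 genes. It ranged from 3.75 to 15.4 CPM in HET synaptic libraries, with a median of 5.65, and from 5.78 to 270 CPM in WT ones, with a median of 11.3. In nuclei it ranged from 166 to 449 CPM in HET and from 195 to 821 CPM in WT. The 270 and 231 CPM of WT male replicates 1 and 2 were the only synaptic values within the nuclear range, and without their animals the WT fold change was −4.76 (edgeR adjusted p = 6.29e-07). In germline HET it was −4.83 (SE 0.294, edgeR adjusted p = 2.51e-07). In the conditional line Neat1 had 8.55 to 19.5 CPM in synaptic and 120 to 424 CPM in nuclear libraries, with no overlap, and log2 fold changes of −3.39 in HOM, −3.41 in HET and −3.58 in WT.

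Miat ranged from 22.4 to 109 CPM in germline HET synaptic libraries, with a median of 70.8, and from 52.9 to 2107 CPM in WT ones, with a median of 108. Nuclear libraries held 1447 to 2165 CPM in HET and 1206 to 2136 CPM in WT. Apart from WT male replicates 1 and 2, at 2011 and 2107 CPM, the highest synaptic value was 183 CPM and the fractions did not overlap. The fold change was −2.77 in WT (log2, SE 0.499, edgeR adjusted p = 0.000438), −3.39 without those animals (edgeR adjusted p = 1.02e-08), and −4.49 in HET (SE 0.33, edgeR adjusted p = 8.17e-07). Conditional synaptic libraries held 52.7 to 151 CPM and nuclear ones 885 to 1793 CPM, again without overlap, with log2 fold changes of −3.53 in HOM, −3.09 in HET and −3.05 in WT.

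Snhg11 had 79.0 to 500 CPM in germline HET synaptic libraries, with a median of 329, and 252 to 10280 CPM in WT ones, with a median of 504. Its nuclear values were 7808 to 11331 CPM in HET and 7037 to 11915 CPM in WT. The synaptic libraries of WT male replicates 1 and 2, at 10235 and 10280 CPM, lay within the nuclear range, and the other 16 did not exceed 934 CPM. The log2 fold change was −3.05 in WT (SE 0.544, edgeR adjusted p = 0.000406), −3.70 without those animals (edgeR adjusted p = 2.83e-08) and −4.83 in HET (SE 0.382, edgeR adjusted p = 1.3e-06). Conditional libraries held 239 to 813 CPM in the synaptic and 4667 to 12172 CPM in the nuclear fraction, and the log2 fold changes were −3.54 in HOM, −3.28 in HET and −3.29 in WT.

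Kcnq1ot1 was the member with the lowest level per kb of exonic length. Its germline HET synaptic libraries held 1.14 to 5.01 CPM, with a median of 3.08. WT ones held 1.44 to 70.5 CPM, with a median of 4.88. Nuclear libraries held 36.5 to 79.0 CPM in HET and 34.1 to 101 CPM in WT. Of the synaptic libraries only WT male replicates 1 and 2, at 39.4 and 70.5 CPM, lay within the nuclear range, and the other 16 did not exceed 8.84 CPM. Its counts in the WT synaptic libraries ran from 66 to 1874 reads, so the lowest values rest on few reads. The log2 fold change was −2.73 in WT (SE 0.559, edgeR adjusted p = 0.00103), −3.36 without WT male replicates 1 and 2 (edgeR adjusted p = 7.55e-07) and −3.52 in HET (SE 0.335, edgeR adjusted p = 4.43e-06). The conditional fractions overlapped, at 3.21 to 21.6 CPM in synaptic and 14.2 to 93.2 CPM in nuclear libraries. There the log2 fold change was −1.85 in HOM, −1.94 in HET and −1.99 in WT (SE 0.194, edgeR adjusted p = 4.74e-07), nearer to 0 than that of the other 4 nuclear members. Kcnq1, whose exons overlap Kcnq1ot1 on the other strand, also fell, by 3.21 in germline WT and by 3.28 in conditional WT on the log2 scale, and reads of this pair may be shared.

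Peg13 went the other way. It had at least 262.6 CPM in every germline HET synaptic library, with a median of 293 CPM, and ranged from 139 to 304 CPM in WT ones, with a median of 284 CPM. Nuclear libraries held 140 to 183 CPM in HET, with a median of 171, and 133 to 211 CPM in WT, with a median of 175. WT male replicates 1 and 2, at 158 and 139 CPM, lay within the nuclear range, as did a WT library at 204 CPM. Peg13 was 1.99-fold higher in the synaptic fraction in WT (edgeR adjusted p = 9.67e-05, log2 fold change 0.995, SE 0.141), with a log2 fold change of 1.16 without WT male replicates 1 and 2 (edgeR adjusted p = 1.18e-07), and 2.71-fold higher in HET (1.44, SE 0.115, edgeR adjusted p = 1.41e-06). In the conditional line, synaptic libraries held 238 to 339 CPM and nuclear ones 99.9 to 232 CPM, without overlap, and the log2 fold change was 1.13 in HOM, 1.31 in HET and 1.35 in WT (SE 0.103, edgeR adjusted p = 3.88e-08). Trappc9, the gene that holds Peg13 in an intron and encodes a subunit of a vesicle tethering complex, also rose, by 1.06 in germline WT and 1.22 in conditional WT. Kcnk9, a potassium channel gene of the same imprinted region, fell by 1.25 in germline WT and by 1.03 in conditional WT.

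Pantr1 and Tug1 lay nearer to the median gene, and some of their calls changed when libraries were scaled by their totals. With TMM scaling, which sets the bulk of genes to no change, the median of all genes was −0.06 in germline WT, and with library totals alone it was −0.56, a shift of the same sign in all 5 comparisons. In germline WT, 1833 genes were called higher and 10307 lower with totals, so that 15.1% of those called were higher, against 5811 higher and 6630 lower with TMM. Malat1, Neat1, Miat, Snhg11 and Kcnq1ot1 fell and Peg13 rose under both scalings in all 5 comparisons.

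Pantr1 ranged from 25.2 to 39.8 CPM in germline HET synaptic libraries and from 18.2 to 57.7 CPM in WT ones, against 20.6 to 34.7 CPM in HET and 20.3 to 38.8 CPM in WT nuclei, so the fractions overlapped. It rose in germline WT with TMM (edgeR adjusted p = 0.000367, log2 fold change 0.87, SE 0.153) and with totals (0.37, edgeR adjusted p = 0.019), and by 1.07 with TMM without WT male replicates 1 and 2 (edgeR adjusted p = 5.39e-07). In germline HET it rose by 0.75 with TMM (edgeR adjusted p = 5.17e-05), and with totals the value was 0.14 (edgeR adjusted p = 0.256). In the conditional line the log2 fold change with TMM was −0.14 in HOM (edgeR adjusted p = 0.459), −0.05 in HET (0.717) and 0.39 in WT (0.00409), and with totals −0.65 in HOM (0.00104), −0.59 in HET (0.00034) and −0.15 in WT (0.218).

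Tug1 ranged from 57.7 to 89.5 CPM in germline HET synaptic libraries and from 55.9 to 83.5 CPM in WT ones, against 72.4 to 121 CPM in HET and 79.2 to 143 CPM in WT nuclei. The fractions overlapped in both lines. Its log2 fold change with TMM was −0.17 in germline WT (SE 0.107, edgeR adjusted p = 0.173), −0.17 without WT male replicates 1 and 2 (edgeR adjusted p = 0.183) and −0.25 without the animal with conflicting sex markers (edgeR adjusted p = 0.0205). In germline HET it was 0.28 (edgeR adjusted p = 0.113), or 0.41 without nuclear HET female replicate 3 (edgeR adjusted p = 0.00621). It was 0.25 in conditional HOM (edgeR adjusted p = 0.151), 0.56 in HET (0.000258) and 0.35 in WT (0.0033). With totals it was −0.67 in germline WT (0.000248), 0.01 in conditional HET (0.937) and −0.18 in conditional WT (0.0815), so the rise of Tug1 in conditional HET and WT did not hold with totals.

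A comparison within each animal that no scaling can change is the ratio of a member to Malat1 in the same libraries. In germline WT, the log2 synaptic to nuclear ratio of Peg13 was higher than that of Malat1 by 3.85 ± 1.69 (SD), that of Pantr1 by 3.73 ± 1.74 and that of Tug1 by 2.69 ± 1.28, each in 10 of 10 animals (exact two-sided sign-flip permutation test, p = 0.00195, the smallest it allows, adjusted p = 0.00456 over 7 comparisons). Neat1 was lower than Malat1 by 1.11 ± 1.04, in 8 of 10 animals (exact permutation test, adjusted p = 0.0239). In 1 of the 10 pairs the sex markers of the libraries conflict, so they cannot come from 1 animal. With any 1 pair left out, that pair included, adjusted p was 0.00911 for Peg13, Pantr1 and Tug1 (exact permutation test). For Neat1 it was 0.0137 to 0.0479 (exact permutation test). Without WT male replicates 1 and 2 the differences were 4.52 for Peg13, 4.42 for Pantr1 and 3.19 for Tug1, each in 8 of 8 animals (exact permutation test, adjusted p = 0.0182), and −1.33 for Neat1 (exact permutation test, adjusted p = 0.0273). With all 10 animals Miat (0.24 ± 0.69), Snhg11 (−0.04 ± 0.78) and Kcnq1ot1 (0.20 ± 1.37) had adjusted exact permutation p of 0.44, 0.865 and 0.754. In 12 conditional animals of all 3 genotypes the difference was 4.35 ± 1.23 for Peg13, 3.48 ± 0.93 for Tug1 and 3.15 ± 1.15 for Pantr1, each in 12 of 12 animals (exact permutation test, p = 0.000488, the smallest it allows, adjusted p = 0.00114). Kcnq1ot1 was above Malat1 by 1.12 ± 0.67 in 11 of 12 of them (exact permutation test, adjusted p = 0.00171), and Neat1 below it by 0.39 ± 0.62 in 7 of 12 (adjusted p = 0.067).

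**Figure D2:**
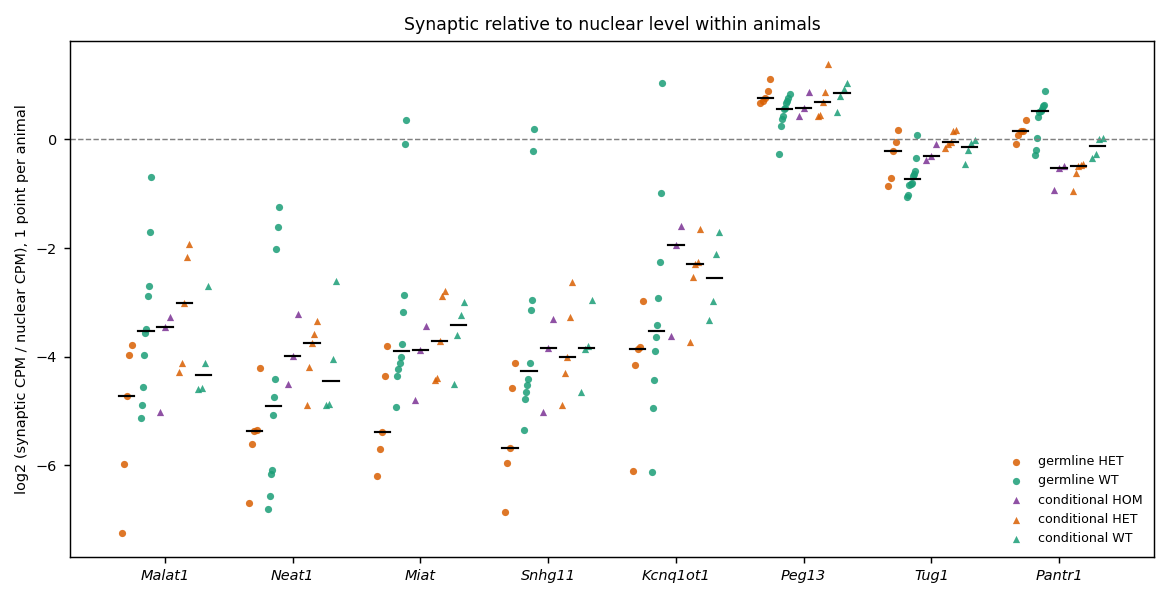
Log2 ratio of the synaptic to the nuclear level (CPM on library totals) of each member in each of 27 animals with both fractions, by line and genotype. Each point is 1 animal. Malat1 lies between −7.25 and −0.69 and is below 0 in all 27, Peg13 is above 0 in 26, and Tug1 lies between −1.05 and 0.18. The pairs of WT male synaptic replicates 1 and 2 are the germline WT points nearest to 0 for Malat1, Neat1, Miat and Snhg11.

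Over all 27 animals with both fractions, the median synaptic level was 4.43% of the nuclear one for Neat1, 5.75% for Snhg11, 6.42% for Malat1, 6.78% for Miat and 12.7% for Kcnq1ot1. The share of Peg13 had a median of 148 to 182% in the 5 groups. The lines were not tested against each other. For Pantr1 the median share was 112% in germline HET, 143% in germline WT, 69.1% in conditional HOM and 71.4% in conditional HET. In conditional WT it was 91.8%, with 2 pairs below the nuclear level and 2 above it. For Tug1 it was 85.8% in germline HET, 60.1% in germline WT, 81.3% in conditional HOM, 97% in conditional HET and 91.2% in conditional WT. These shares are of CPM on library totals, so they say how a member stood among the reads of its fraction and not how many molecules each fraction held. In bulk fractions, fewer cells of a type and less RNA per cell cannot be told apart.

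Summed levels of cell type markers differed between the fractions as well. Such sums are of RNA in a fraction and do not count cells. The 7 endothelial and mural markers, all detected, summed to a median of 56.8 CPM in germline WT synaptic and 1666 CPM in nuclear libraries, and to 66.9 CPM and 988 CPM in conditional WT. The 5 neuronal markers were higher in the synaptic fraction, but not they alone. By median sum in WT of both lines, astrocyte and microglia markers were higher there as well. Astrocyte markers had 5998 CPM in germline WT synaptic and 3658 CPM in nuclear libraries. Microglia markers had 419.5 CPM and 251.9 CPM in conditional WT. Median sums of oligodendrocyte, choroid plexus and blood markers were lower in the synaptic fraction in WT of both lines. The part of cell types in the members' differences was not tested.

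Other genes of the same kinds were set beside the members. Of 14 tested host genes of small nucleolar RNAs, 12 fell and none rose in the germline WT synaptic fraction (median log2 fold change −1.02, against −0.06 over all genes, of which 35.1% fell), with Snhg1 at −2.19 and Snhg5 at −1.43. Of 5 imprinted long noncoding RNAs all fell (median −1.41), among them Rian at −1.21 and Mirg at −2.76, both from the Dlk1 to Dio3 region. Of 20 other long noncoding RNAs of the brain, 15 fell and 3 rose (median −1.39), with Mir22hg at −1.44 and C130071C03Rik at −1.45. Of 16 genes for proteins of speckles and paraspeckles or for binding partners of the members, 8 fell and 3 rose (median −0.54), with Srsf2 at −2.12 and Srsf1 at −1.70, both splicing factors.

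Genes next to the members were mixed: of 14, 6 rose and 3 fell (median 0.24), where 30.8% of all genes rose and 35.1% fell, with Cdkn1c, a cell cycle inhibitor silenced in cis by Kcnq1ot1, at −1.07. The mRNAs known from dendrites went the way of Peg13. Of 16, 15 rose and none fell (median 1.01), with the postsynaptic scaffold genes Shank3 at 1.08 and Dlgap3 at 1.35. In conditional WT, 14 of 14 host genes fell and 16 of 16 dendritic mRNAs rose (medians −1.38 and 0.69, against −0.06 over all genes, of which 35% fell and 31.9% rose), and in conditional HOM 9 of the 16 dendritic mRNAs rose, where 24.7% of genes did. Without WT male replicates 1 and 2, in germline WT 11 of 14 host genes and 5 of 5 imprinted RNAs fell, 14 of 16 dendritic mRNAs rose, and of the 16 speckle and paraspeckle genes 11 fell and 4 rose. Library totals shift all genes downward, to a median of −0.56 in germline WT, −0.59 in conditional WT and −0.58 in conditional HET. Beside these, the dendritic list had medians of 0.51, 0.16 and −0.10 in the same order, above that of all genes in each, with 10 higher and none lower in germline WT, 5 higher and 2 lower in conditional WT, and 2 higher and 4 lower in conditional HET. In germline WT the host genes had a median of −1.52 with totals, the imprinted RNAs −1.92 and the neighbouring genes −0.26.

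The cytosolic fraction and whole cortex were counted in tables of their own, so their levels are set side by side without a test. In the germline cytosolic fraction Snhg11 had a median of 2178 CPM in HET and 1446 CPM in WT, Malat1 323 CPM and 275 CPM, and Miat 435.9 CPM and 325 CPM, all above the synaptic medians and below the nuclear ones. Peg13 had 400.7 to 545.8 CPM in HET and 396 to 585 CPM in WT, every library above its medians in the synaptic (293 and 284 CPM) and nuclear fractions (171 and 175 CPM). Tug1, at 107 CPM in HET and 112 CPM in WT, was near its nuclear level, and Pantr1, at 46.7 and 45.4 CPM, was above both other fractions. Whole cortex of the germline line lay between nuclear and synaptic values for the nuclear members, with median Malat1 at 326 CPM in HET and 380 CPM in WT.

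In whole cortex the nuclear members varied widely from animal to animal, and they varied together. Snhg11 ranged from 130 to 2253 CPM over 16 HET and from 355 to 2882 CPM over 15 WT libraries, Miat from 26.6 to 518 CPM and from 91.4 to 621 CPM, and Malat1 from 63.8 to 850 CPM and from 118 to 1202 CPM. By contrast, Tug1 stayed within 68.4 to 98.5 CPM in HET and 85.2 to 104 CPM in WT, and Pantr1 within 30.4 to 47.3 CPM and 29.03 to 41.6 CPM. Thus the highest library exceeded the lowest 17.3-fold for Snhg11 and 1.44-fold for Tug1 among HET.

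Over the 31 germline cortex libraries, log2 CPM of 4 members rose with that of Malat1. Pearson's r was 0.93 for Snhg11, 0.93 for Kcnq1ot1, 0.92 for Miat and 0.88 for Neat1 (permutation p = 1e-05 each, the smallest the resampling can give, adjusted p = 1.75e-05 over 7 relations; Spearman's rho 0.92, 0.86, 0.94 and 0.88, p = 1e-05 each, adjusted p = 1.4e-05). Peg13 ran against Malat1 (r = −0.59, permutation p = 0.00039, adjusted p = 0.000546; rho = −0.73, p = 1e-05). Tug1 (r = −0.06, permutation p = 0.75, adjusted p = 0.75; rho = −0.03, p = 0.881) and Pantr1 (r = 0.13, permutation p = 0.504, adjusted p = 0.588; rho = 0.17, p = 0.363) showed no such relation. The libraries share tissue and library preparation, and their CPM share a total.

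The relations held within both labelled batches. In the batch of 15 libraries r was 0.98 for Snhg11, 0.92 for Kcnq1ot1, 0.98 for Miat, 0.97 for Neat1 and −0.67 for Peg13, and in the batch of 16 libraries it was 0.93, 0.96, 0.92, 0.87 and −0.87 in the same order. Without the 2 libraries farthest from the median of Malat1, r over the rest was 0.90 for Snhg11, 0.89 for Kcnq1ot1, 0.91 for Miat, 0.82 for Neat1 and −0.58 for Peg13. For Tug1 r was −0.36 in the batch of 15 and 0.20 in the batch of 16, and for Pantr1 0.13 and 0.29.

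**Figure D3:**
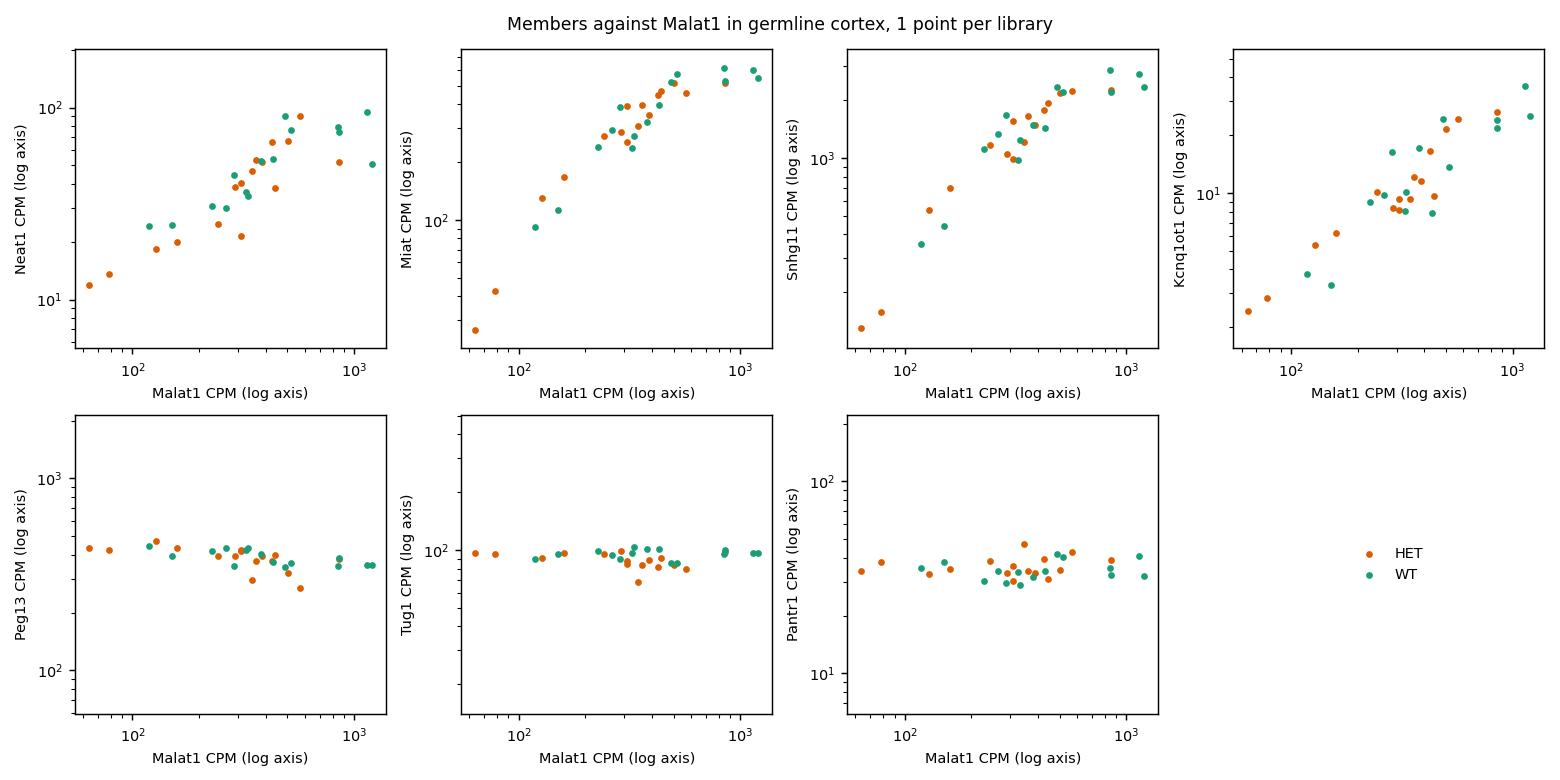
Level of 7 members against that of Malat1 in 31 germline cortex libraries (CPM, log axes whose range differs between panels). Each point is 1 library of 16 HET and 15 WT. Neat1, Miat, Snhg11 and Kcnq1ot1 rise with Malat1 (r from 0.88 to 0.93), Peg13 runs against it (r = −0.59), and Tug1 and Pantr1 stay level.

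The genes whose cortex pattern was most like each member's were read from the same 31 libraries, after means of batch, sex and genotype were removed, among 13422 genes with an average log2 CPM of at least 1. Snhg11 was most like Meg3 (r = 0.998), Leng8 (0.996) and Miat (0.994), and Miat most like Meg3 (0.995), Snhg11 (0.994) and AI480526 (0.993). Malat1 was most like Celsr3 (0.965), Gm11611 (0.962) and Myo9b (0.959), Neat1 like Cdan1 (0.967), Arglu1 (0.964) and Arhgef1 (0.963), and Kcnq1ot1 like Arnt (0.977), CT010445.1 (0.967) and Srsf11 (0.967). Peg13 had other company, with App (0.957), the gene of the amyloid precursor protein, Dnajc5 (0.948), which encodes a chaperone of synaptic vesicles, and Sort1 (0.938). Tug1 was most like Creb1 (0.853), Clock (0.846) and Rgs17 (0.841), and Pantr1 like Drc1 (0.794), Fam162a (0.792) and Atp5h (0.770). These likenesses are descriptions over libraries that share tissue and total.

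Chd8 genotype was compared within each fraction. In edgeR none of the 8 members passed in germline cortex, where 0.334% of 17074 genes were called, or in the germline nuclear fraction, where 0.0151% of 19912 were called. None passed in the other 7 comparisons either, where 0% of genes were called. For the germline synaptic fraction this changed without WT male replicates 1 and 2, where 76 genes were called higher and 66 lower of 16862, none of them a member. At an unadjusted p under 0.05 in edgeR there were 0 members in germline cortex (9.25% of all genes), 1 in the nuclear (7.38%), 1 in the synaptic (11%) and 0 in the cytosolic fraction (3.28%). Conditional comparisons had 5 in cortex (3.08% of all genes), 3 in nuclear HOM (11.6%), 1 in nuclear HET (4.45%), 2 in synaptic HOM (4.96%) and 2 in synaptic HET (4.37%). DESeq2 called none of the members in any of these 9 comparisons.

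In germline cortex the difference of HET from WT was −0.47 for Malat1 (95% interval −1.08 to 0.14, edgeR adjusted p = 0.661), −0.41 for Neat1 (−0.92 to 0.09) and −0.40 for Kcnq1ot1 (−1.03 to 0.22) on the log2 scale. The interval of Malat1 takes in a fall to less than 50% of WT as well as no change. It was narrower for Tug1 (−0.10, from −0.19 to 0.003), Peg13 (0.01, from −0.13 to 0.16) and Pantr1 (0.07, from −0.05 to 0.18). Values within the batches are given beside these. In the batch labelled CHD807, Malat1 had a median of 307 CPM in HET and 683 CPM in WT (−0.94, edgeR adjusted p = 0.375), and in the batch labelled CHD80456 it had 365 CPM and 326 CPM (0.02, edgeR adjusted p = 1).

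In the germline nuclear fraction Neat1 had a median of 283 CPM in the libraries labelled HET and 468 CPM in WT, with overlapping ranges, and a log2 difference of −0.69 (SE 0.201, unadjusted p = 0.00199, edgeR adjusted p = 0.383). Its sign was negative in all 3 groups of batch labels fitted alone, at −0.45, −0.34 and −1.31. Both nuclear libraries flagged by their sex markers, HET female replicate 4 and WT male replicate 7, fall in the same group of these. The other 7 members lay between −0.18 and 0.14. In the germline synaptic fraction Malat1 stood at −1.13 (95% interval −2.14 to −0.11, edgeR adjusted p = 0.407), and at −0.84 without WT male replicates 1 and 2 (edgeR adjusted p = 0.136). In the only group of batch labels that held enough libraries of both genotypes there, it was −0.09. In the cytosolic fraction the 8 members lay between −0.10 and 0.42, and none had an unadjusted p under 0.05.

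In conditional cortex the 5 nuclear members were all lower with Cre at an unadjusted p under 0.05, and none passed over all genes. Malat1 had 171, 248, 274, 303, 323 and 344.4 CPM in the 6 mice with Cre, and a lowest, median and highest value of 227, 452 and 932 CPM in the 8 without. Kcnq1ot1 had 11.1, 12.9, 13.1, 14.2, 14.6 and 15.1 CPM with Cre, against 11.99, 19.9 and 43.0 CPM as lowest, median and highest value without. The ranges overlapped for all 5. Their log2 differences were −0.78 for Miat, −0.76 for Malat1, −0.70 for Kcnq1ot1, −0.64 for Snhg11 and −0.61 for Neat1 (edgeR adjusted p = 0.882 each). Since these members varied together in germline cortex, they are not 5 independent observations. In this cortex Cre and the floxed allele's deletion go together and cannot be told apart.

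In the conditional nuclear fraction Malat1 had 811, 870 and 2100 CPM in HOM, 894, 950, 952, 1173, 1214 and 1518 CPM in HET, and 872, 1542, 4310 and 5292 CPM in WT. Both highest values were WT libraries, and the lowest WT library lay within the HOM and below the HET range. The log2 difference from WT was −1.20 in HOM (SE 0.476, edgeR adjusted p = 0.426) and −1.35 in HET (SE 0.381, edgeR adjusted p = 0.933). Without WT female replicate 2 the values were −0.70 in HOM (edgeR adjusted p = 0.763) and −0.65 in HET (edgeR adjusted p = 1). Kcnq1ot1 had 14.2, 22.3 and 39.4 CPM in HOM and 28.97, 48.1, 89.7 and 93.2 CPM in WT nuclei, and differed by −1.27 (SE 0.454, edgeR adjusted p = 0.426). Its synaptic values were 3.21 to 6.78 CPM in HOM, 5.39 to 8.08 CPM in HET and 4.81 to 21.6 CPM in WT, with log2 differences of −1.01 in HOM (edgeR adjusted p = 0.923) and −0.77 in HET (edgeR adjusted p = 0.995). HOM and HET share the WT libraries, so these values are not independent of each other.

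Pantr1 was the only member with a genotype comparison in which the groups did not overlap. In conditional synaptic libraries it had 22.3, 23.1, 26.5, 26.6 and 27.1 CPM in HET and 27.6, 27.8, 33.9 and 35.1 CPM in WT, with a log2 difference of −0.28 (SE 0.124, edgeR adjusted p = 0.995), and 0% of genes were called there. HOM, at 20.95 to 30.1 CPM, overlapped WT. How many of all genes had groups without overlap was not counted, and the groups are small. The separation is therefore not read as a trait of Pantr1.

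**Figure D4:**
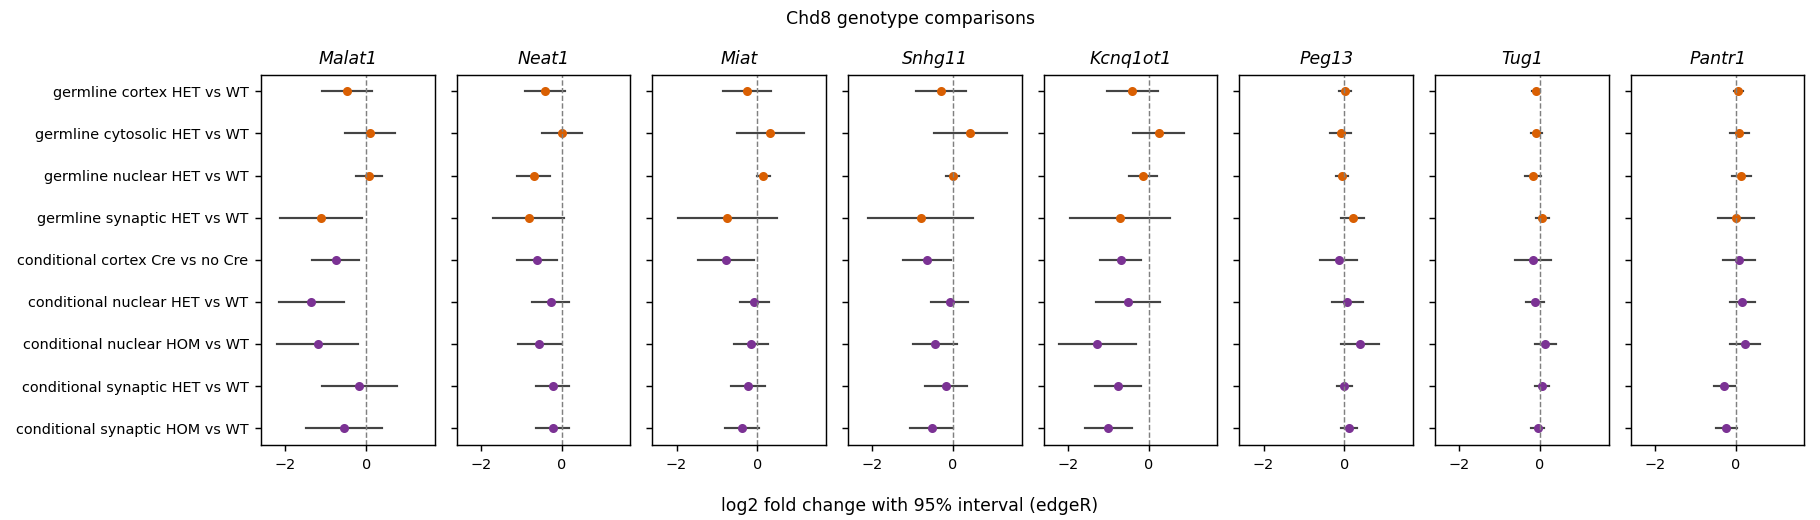
Log2 fold change of each member in the 9 genotype comparisons, with its 95% interval (edgeR). Each row is 1 comparison, mutant against WT, or Cre against no Cre in conditional cortex. The dashed line is no change. No member passed an adjusted p of 0.05 in any of them, and in germline cortex the interval of Malat1 (−1.08 to 0.14) is wider than those of Tug1 (−0.19 to 0.003) and Peg13 (−0.13 to 0.16).

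Whether the step from nuclear to synaptic fraction differed between genotypes was tested as an interaction, with 0% of the genes called in each of the 3 tests. In the germline line the synaptic to nuclear difference of HET minus that of WT was −1.80 for Snhg11 (SE 0.775), −1.74 for Miat (SE 0.714), −1.63 for Malat1 (SE 0.664) and 0.43 for Tug1 (SE 0.193), with edgeR adjusted p = 0.588 each and an unadjusted p under 0.05 for these 4, as for 7.21% of all genes. Without the animals of WT male replicates 1 and 2 the values were −1.17 for Snhg11, −1.13 for Miat, −1.17 for Malat1 and 0.41 for Tug1 (edgeR adjusted p = 0.777 each). In the conditional line Pantr1 had −0.55 in HOM (SE 0.177, edgeR adjusted p = 0.892) and −0.46 in HET (SE 0.156, edgeR adjusted p = 1), and Malat1 0.06 in HOM and 0.90 in HET (SE 0.445, edgeR adjusted p = 1). DESeq2 called none of the members in these tests.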

How the data were processed

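Poly(A) RNA-seq of cortex and its fractions gave 127 labelled libraries, of which 123 were analysed and 4 cytosolic ones were not analysed here. The authors deposited raw counts per gene, and 5 of their tables were read. The submitters' processing notes name STAR 2.5.4b, featureCounts 2.0.0 and GRCm38. For conditional cortex the file headers give featureCounts 1.6.0 and Ensembl 95, with no strand or pair option. For the other tables no source used here states the strand setting. Even counts made up 56.3 to 74.7% of counts from 10 to 200, so mates may have been counted separately. The same counts of 16 libraries stood in 2 tables and entered once, and a Cre row (at most 0.00135% of reads) was left out. Of the gene IDs 54723 matched a symbol and 115 did not.

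Groups came from titles and characteristics. The members, the gene lists and the comparisons were chosen with earlier results of these data known. Named beside the members were Chd8, the 3 most similar genes per member and the 2 genes of each list with the smallest p; Trappc9, Kcnq1 and Kcnk9 were added after their values were seen. The test on counts was edgeR's (version 4.0.16, with limma 3.58.1 and R 4.3.3) quasi-likelihood F, after filterByExpr and TMM, and p-values were adjusted by Benjamini-Hochberg over all genes tested (threshold 0.05), after tests on simulated data. Genotype fits held sex, plus batch for germline cortex, or plus a batch group of 3 levels for the germline nuclear and synaptic fractions. Fractions were compared with animal as a block, from animal numbers in library names. In 1 of the 10 germline WT pairs the sex markers of the libraries conflict, so they cannot come from 1 animal. A conditional animal labelled HET in 1 fraction and HOM in the other was left out of pairs. Ratios to Malat1 used counts plus 0.5. Replicate numbers shared between genotypes were taken to pair samples only in conditional nuclear HET and WT, by the lowest correlation of deviations (0.14 to 0.27 over 4 pairs). Of these 4 HET libraries, 2 were most like the WT library of their own number. A block there changed no call of a member. Animals are separate within a fraction, so p-values measure the spread between animals. Depths ran from 19.0 to 134.6 M, and the part of depth in precision was not tested. Coordinates and transcript sequences came from GENCODE M21 (GRCm38), and motifs were counted on the transcript strand. Each count of calls was recomputed with RLE scaling, DESeq2 1.42.0, other covariates, blocks, unfiltered counts and libraries left out; library totals, single batches and the lists under other settings were added after the data were seen. Figures were drawn with matplotlib 3.10.9.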

Additional observations from a re-analysis of the deposited data

Results flagged for a closer look

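Sets of 4 to 10 values were checked for 1 value far from the rest, in 88 sets of levels (8 members by group of libraries) and 32 sets of synaptic to nuclear ratios (8 members by group of animals). Of these 120 sets 6 held one, all of them levels, and the 95% critical values used are passed by chance in about 1 in 20 sets. Kcnq1ot1 stood at 42.98 CPM in conditional cortex without Cre, male replicate 2, against 11.99 to 26.1 CPM in the other 7 libraries. Malat1 stood at 2779 CPM in germline nuclear HET male replicate 1, against 1203 to 1937 CPM in the others. HET male replicate 3 of the same fraction had Miat at 2165 CPM, against 1447 to 1760 CPM, and Snhg11 at 11331 CPM, against 7808 to 9490 CPM. Neat1 stood at 15.38 CPM in germline synaptic HET female replicate 3, against 3.75 to 8.17 CPM. Snhg11 stood at 4368 CPM in germline cytosolic WT male replicate 4, against 760 to 1523 CPM. The causes were not tested.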

How the results depend on the processing

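The counts of members called stayed within 1.5 times under 340 alternative settings and moved further under 8. Of single values 25 came to pass the threshold, 2 no longer passed, and 2 that had passed changed sign. The remaining 2748 were counted as unchanged, and these took in values that did not pass and changed sign. Malat1 in the germline nuclear genotype comparison, for example, ran from −0.069 to 0.139 with 1 library left out. With no filter on low counts, edgeR called members by genotype with nearly the same fold changes: 5 in the germline synaptic fraction, 3 in conditional nuclear HOM, 3 in conditional synaptic HOM, and 1 each in germline nuclear, conditional nuclear HET, conditional synaptic HET and the conditional HET interaction; the cause was not tested. A replicate block called 2 members in the germline cytosolic fraction, Malat1 (0.71, edgeR adjusted p = 0.0258) and Miat (0.90, edgeR adjusted p = 0.0479), and no member in the other genotype comparisons. Replicate numbers in the cytosolic fraction had correlations of −0.129 to 0.537 over 3 pairs and were not taken to pair the samples. Still, all 3 HET libraries there were most like the WT library of their own number, so whether the block belongs is open. With library totals, Pantr1 (−0.145) and Tug1 (−0.184) changed sign in conditional WT. Leaving out 1 animal or library at a time gave 7 to 8 members called between fractions in germline WT, 7 to 8 in germline HET, 8 in conditional WT, 7 in conditional HET and 6 in conditional HOM, 0 by genotype or interaction, and 4 (germline WT) and 4 to 5 (conditional) that differed from Malat1 in ratio. Conditional Snhg11 differed from Malat1 without the animal of nuclear WT male replicate 1 (−0.36, exact permutation test, adjusted p = 0.0328), and Neat1 without that of nuclear HOM male replicate 2 (−0.47, exact permutation test, adjusted p = 0.0232). Over all genes DESeq2 made more genotype calls than edgeR within each fraction and in cortex, up to 192 higher and 27 lower in the germline synaptic fraction, where edgeR made 0; no member was called by either. Kcnq1ot1 had as few as 54 reads in a germline HET synaptic library. Its SE between fractions in germline WT was 0.559, beside 0.544 for Snhg11 and 0.636 for Neat1.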
